A study of Orbilia oligospora ATCC 24927 with 24 samples.

Results

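Genes whose transcript level differed from wild type in untreated hyphae of both cAMP-PKA deletion strains of Arthrobotrys oligospora were compared, gene by gene, between libraries labelled as the deletion of AoAcy (adenylate cyclase) and libraries labelled as the deletion of AoPkaC1 (a PKA catalytic subunit). Of 11479 annotated genes, 8751 were at 1 TPM (a transcript level adjusted for transcript length and for the total of the library) or more in at least 3 libraries of each of 2 deposited tables, and these were compared. Of them, 606 had moved in both deletions, 436 the same way and 170 in opposite directions. A gene is said to have moved where limma's Benjamini-Hochberg adjusted p was under 0.05 and its change at least 2-fold. At the edge of the level filter, 5 genes had a third-highest TPM of 1.0 in one table and were kept, and 3 with 0.99 were not. The least changed gene that counted as moved in both was AOL_s00110g38 (log2 fold changes -1.38 and -1.001), and the nearest to miss was AOL_s00007g94 (0.999 and -1.24).

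A. oligospora is a nematode-trapping fungus, and the labels give ATCC 24927 as the strain of all samples, grown as hyphae on potato dextrose agar at 28 °C. The study holds 2 experiments, each with its own wild type, of 24 libraries in 8 groups. The 12 untreated ones make up the comparison, with 3 libraries in each of 4 groups: wild type and the AoAcy deletion mutant in the Acy experiment, and wild type and the AoPkaC1 deletion mutant in the PkaC1 experiment. The other 12 libraries are the same strains when traps had been induced for 12 h by an extract of nematodes. The experiments share no library. Acy deletion and PkaC1 deletion mean the libraries so labelled throughout, since transcripts of the annotated target genes were still listed in them, as given below. The design text of the series speaks of biological replicates but names a deletion of another gene, AorlmA, which no sample label names; the sample labels were followed. The labels name 1 deletion mutant per gene and give no source culture for a library, so p-values measure the spread between these libraries, which may be technical. Gene names are those of the Swiss-Prot match or Pfam domain in the deposited tables. Per class, 8 named genes follow a rule of size, level and non-overlap given with the processing. For these 8 the rule itself required that deletion and wild type libraries not overlap, so their non-overlap is no result. Up to 2 genes of each gene list with 3 or more members in the classes were also taken by size. Other genes named were chosen after their values were seen.

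Adenylate cyclase makes cAMP from ATP, and cAMP binds the regulatory subunits of PKA and sets its catalytic subunits free to phosphorylate their targets. In fungi the pathway is known for linking nutrient supply to growth, storage carbohydrate use, sporulation and the morphogenesis of infection structures. A fungus can have more than 1 gene for a catalytic subunit.

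Libraries were scaled to the same median TPM within each table, and every level below is such a scaled TPM. The tables were made separately, so levels are set across them only as a description. Within a group, libraries correlated across genes at 0.967 to 0.992 in the Acy experiment and at 0.973 to 0.993 in the PkaC1 experiment, where the wild type libraries were closest to each other (0.991 to 0.993). TPM keep no read counts, so the depth behind a value is unknown. In bulk RNA, fewer cells of a type and less RNA per cell cannot be told apart. Of the list of 23 conidiation and spore genes, the other cells that a fungal culture can hold, the summed level was 1145 to 1551 in wild type and 1713 to 1912 in the Acy deletion libraries, and 654 to 681 and 507 to 605 in the PkaC1 experiment. 1 gene carried much of each sum: without the rodlet gene AOL_s00006g570 the Acy experiment's ranges overlapped (498 to 586 in wild type, 551 to 668 in the deletion), and without AOL_s00080g63, a match to abaA, the PkaC1 experiment's order turned (367 to 377 and 390.1 to 409). None of these genes was listed at 0 throughout a group except 1 in wild type of the PkaC1 experiment, AOL_s00169g18 (a match to veA), and the part of conidia in the results was not tested. The list was matched by words and also holds genes whose name is not one of conidia. The protein phosphatase 2C match AOL_s00188g236 averaged 99.0 in wild type and 68.4 in the deletion of the Acy experiment, and 81.2 and 111 in the PkaC1 experiment. The sums are thus no measure of conidia.

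The gene annotated as adenylate cyclase, AOL_s00080g284, was still listed in the libraries labelled as its deletion. It was at 17.4, 17.2 and 16.5 in wild type and 9.44, 9.77 and 9.57 in the Acy deletion libraries, a log2 fold change of -0.77 ± 0.11 (limma adjusted p = 0.000154). The groups did not overlap, and the deletion libraries had 56.3% of the mean wild type level. The annotation gives 2 genes for a PKA catalytic subunit, but nothing in the labels ties either to the name AoPkaC1. AOL_s00043g480 was at 61.9, 60.8 and 62.3 in wild type and 35.9, 36.5 and 37.1 in the PkaC1 deletion libraries (-0.74 ± 0.0627, adjusted p = 1.58e-06), and AOL_s00078g405 at 51.7, 49.8 and 50.3 and 38.6, 37.8 and 39.1 (-0.38 ± 0.068, adjusted p = 0.000493). Both were thus listed in every library labelled deletion, at 59.2% and 76.1% of wild type, and a TPM over a whole gene does not show which part of it was deleted. Without scaling, AOL_s00078g405 did not pass in that comparison (limma adjusted p = 0.106).

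In the Acy deletion libraries 886 of the 8751 genes had moved higher (10.1%) and 652 lower (7.45%), together 17.6%. In the PkaC1 deletion libraries 874 were higher (9.99%) and 1045 lower (11.9%), together 21.9%. Higher in both were 253 genes, which is 28.6% of the genes higher in the Acy deletion and 28.9% of those higher in the PkaC1 deletion. Lower in both were 183 genes, 28.1% of the Acy list and 17.5% of the PkaC1 list. Another 87 genes were higher in the Acy deletion and lower in the PkaC1 deletion, 9.82% and 8.33% of the lists concerned, and 83 were lower in the Acy deletion and higher in the PkaC1 deletion, 12.7% and 9.50%. The shared direction was thus found in 71.9% of the genes that had moved in both. Over all 8751 genes, 9.99% were higher and 11.9% lower in the PkaC1 deletion. Of the Acy lists, the shared parts, 28.6% higher and 28.1% lower there, are above these shares. The opposite parts, 12.7% higher and 9.82% lower there, are near them, so the opposite classes are near the background in size.

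Without scaling, the tested genes had a median change (log2) of 0.09 in the Acy and 0.20 in the PkaC1 comparison, against -0.05 and -0.01 with it. The counts then became 327 genes higher in both, 127 lower in both, and 90 and 84 opposite. No gene of the 606 went from one of these 4 classes to another, and 521 stayed in theirs. At adjusted p under 0.05 alone, the numbers were 737 higher in both, 988 lower in both, 445 higher in the Acy and lower in the PkaC1 deletion, and 442 the reverse. The background at that rule is 21.2% higher and 24.1% lower in the Acy comparison, and 29.7% and 33.4% in the PkaC1 comparison. Across the 8751 genes, which are not independent replicates, the 2 effects correlated at 0.24 (Pearson).

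A direct test of the difference between both effects, in 1 limma fit of all 24 libraries, called 2437 genes (27.8%) at adjusted p under 0.05 and a 2-fold difference. For the opposite classes the outcome of this test follows from how they were chosen, and it is not counted. The call was made for 105 of the 253 genes higher in both and 49 of the 183 lower in both, whose effects had the same sign and differed in size. Deletion and wild type libraries did not overlap in 52.6% of all genes in the Acy comparison, 69.1% in the PkaC1 comparison and 37% in both. Among the genes higher in both, lower in both, and in the 2 opposite classes, 248, 177, 85 and 79 did not overlap in either. The classes were chosen by adjusted p and size of change in these same libraries. Their separation therefore largely follows from the choice, and its excess over the share of all genes is not counted as a result.

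**Figure D1:**
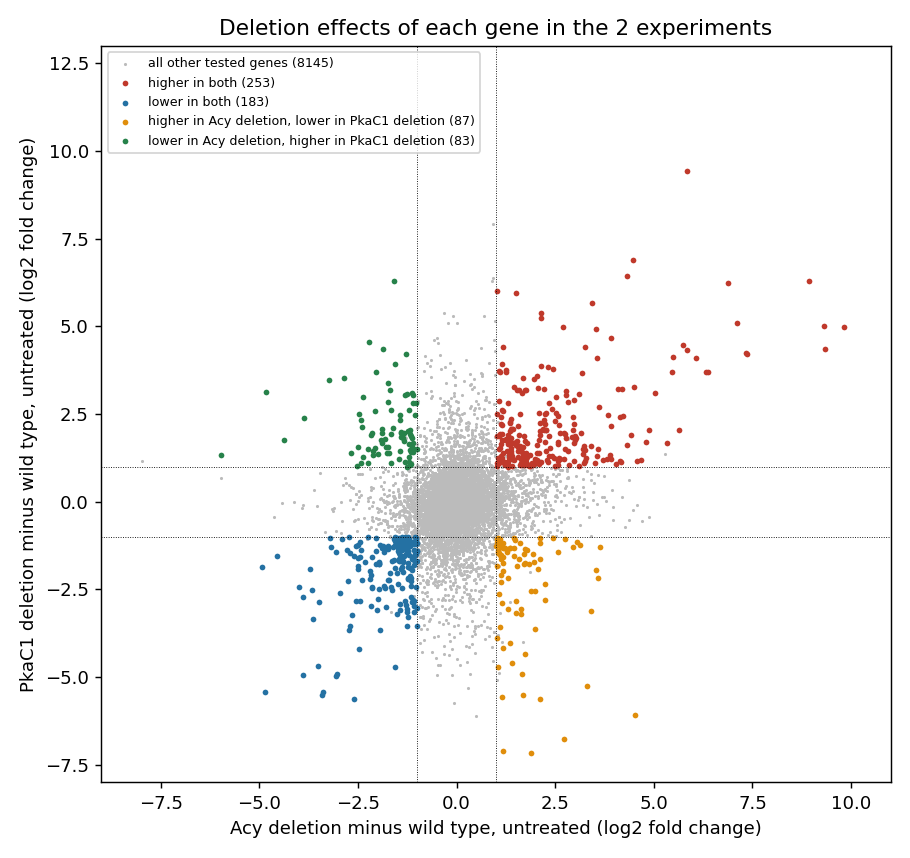
Each point is 1 of the 8751 genes, with its log2 fold change in the untreated Acy deletion on the horizontal axis and in the untreated PkaC1 deletion on the vertical axis; dotted lines mark 2-fold. Coloured points are the 253, 183, 87 and 83 genes that moved in both deletions, and the upper right corner, higher in both, holds the largest class.

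The most marked group lower in both deletions was the gene cluster AOL_s00215g274 to AOL_s00215g283, neighbours in the RefSeq annotation. Of its members, AOL_s00215g276, AOL_s00215g277, AOL_s00215g279, AOL_s00215g280 and AOL_s00215g282 match enzymes of the yan cluster, which makes yanuthones in Aspergillus niger from 6-methylsalicylic acid, AOL_s00215g281 and AOL_s00215g283 act on or make that acid by name, and in A. oligospora polyketide-terpenoid hybrids of the arthrosporol kind are known from such a pathway. Of its 10 genes, 8 were lower in both deletions. The stretch was drawn to begin and end with a gene of the class, so this count only describes it. Its longest unbroken run of class genes held 5. The log2 fold changes of these 8 ran from -4.84 to -2.60 in the Acy and from -5.63 to -3.24 in the PkaC1 deletion.

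The 6-methylsalicylic acid synthase AOL_s00215g283, the polyketide synthase that makes the starting ring, was at 11.8, 19.4 and 13.2 in wild type and 1.22, 1.57 and 1.88 in the Acy deletion libraries. In the PkaC1 experiment it was at 259.8, 264 and 266 and 4.86, 4.59 and 3.64. The deletion libraries were the low ones in both, without overlap, but wild type was far higher in the PkaC1 experiment, and the effects of -2.60 ± 0.222 and -5.63 ± 0.0868 differed (by 3.03, limma adjusted p = 3.67e-09). The decarboxylase AOL_s00215g281, which takes the carboxyl group off that ring, went from 33.1, 37.2 and 36.1 to 1.45, 2.23 and 3.17 in the Acy experiment. It went from 208, 212 and 208 to 7.64, 7.64 and 6.21 in the PkaC1 experiment, again without overlap (log2 fold changes -3.50 ± 0.227 and -4.69 ± 0.195).

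The oxidoreductase AOL_s00215g277, a match to yanE, was the most expressed of the 8 in wild type of the PkaC1 experiment. It fell from 324, 242 and 364 to 4.03, 10.6 and 19.9 (-4.84 ± 0.446, adjusted p = 5.4e-06) and from 1414, 1379 and 1377 to 27.9, 36.6 and 29.5 (-5.44 ± 0.122, adjusted p = 8.68e-11). Its effects were not called different (adjusted p = 0.332), and each deletion library was below every wild type library of its experiment. The polyprenyl transferase AOL_s00215g276, which joins the terpenoid chain to the ring, went from 99.2, 114 and 137 to 4.91, 9.79 and 21.5 and from 869, 904 and 871 to 25.3, 22.8 and 13.1. The tailoring cytochrome P450 genes AOL_s00215g280 (yanH match) and AOL_s00215g282 (yanC match) fell by 3.88 and 3.41 on the log2 scale in the Acy deletion and by 4.94 and 5.52 in the PkaC1 deletion. For the FAD monooxygenase AOL_s00215g279 and the dehydrogenase AOL_s00215g274 the changes were -3.05 and -2.64, and -4.96 and -3.24.

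The other 2 genes of the cluster moved in 1 deletion each. The P450 gene AOL_s00215g278 (a match to P450 3A9) went from 66.2, 103 and 76.6 to 3.86, 6.37 and 8.96 in the Acy experiment (-3.52 ± 0.247, adjusted p = 6.57e-07). Among the PkaC1 libraries it was at 1623, 1717 and 1836 in wild type and 1078, 1821 and 2055 in the deletion libraries, which overlap (-0.11 ± 0.195, adjusted p = 0.632). The unnamed AOL_s00215g275 showed the reverse, at 2.14, 2.62 and 3.58 and 1.03, 3.1 and 4.33 in the Acy experiment (-0.08, adjusted p = 0.87) and 34.9, 36 and 30.2 and 1.25, 2.2 and 0.841 in the PkaC1 experiment (-3.87, adjusted p = 4.36e-08). For both genes the difference between the effects passed (limma adjusted p = 4.14e-08 and 2.8e-07). Away from the cluster, 2 further genes with related names were lower in both: AOL_s00173g57, a match to the transferase yanI (-2.74 and -3.65), and AOL_s00215g259, a match to another 6-methylsalicylic acid decarboxylase (-2.19 and -1.96).

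**Figure D2:**
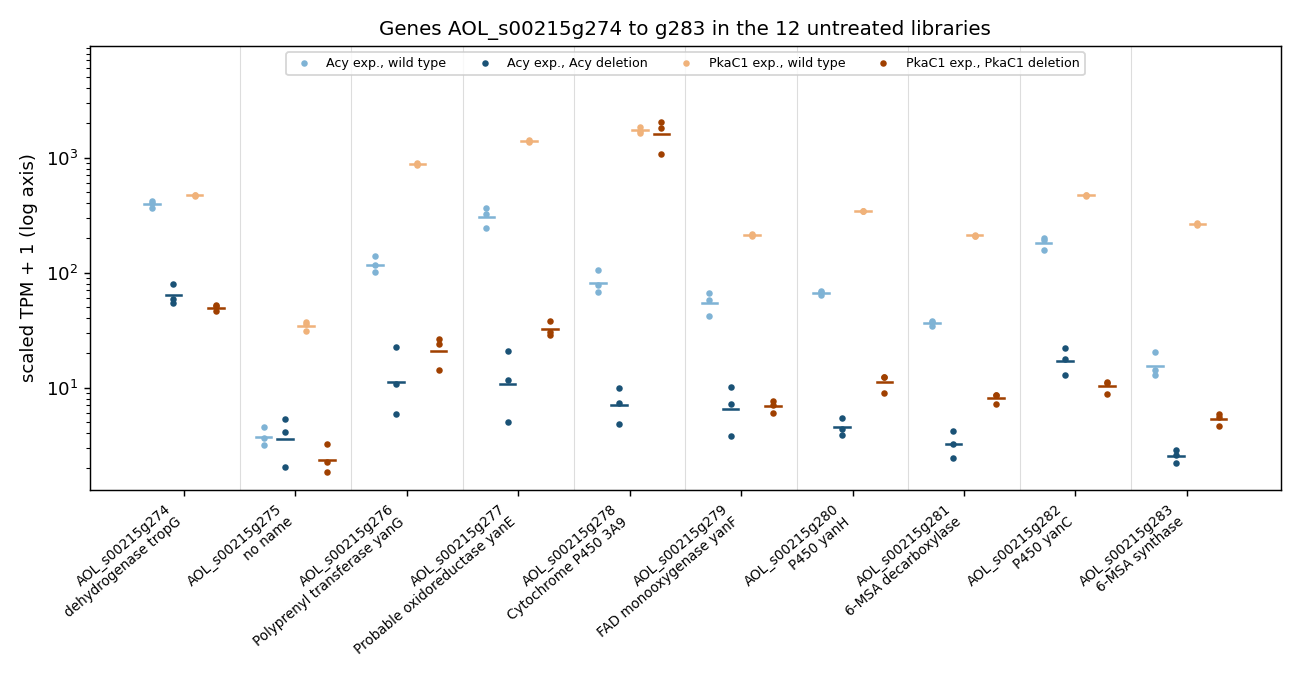
Scaled TPM + 1 on a log axis of the 10 neighbouring cluster genes in the 12 untreated libraries; points are libraries and bars the mean of their log values (n = 3), and 6-MSA stands for 6-methylsalicylic acid. Deletion libraries lie below wild type in both experiments for 8 genes, while AOL_s00215g275 and AOL_s00215g278 are separated in 1 experiment each.

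A pair of neighbours whose names belong to carotenoid synthesis was also lower in both. Phytoene desaturase (AOL_s00004g585), which introduces double bonds into phytoene, went from 541, 460.0 and 488 to 56.7, 57 and 78.4 in the Acy experiment and from 307, 298 and 294 to 41, 57.5 and 47.1 in the PkaC1 experiment (-2.95 ± 0.189 and -2.62 ± 0.127). Its neighbour AOL_s00004g586, the bifunctional lycopene cyclase and phytoene synthase, went from 78.8, 52.7 and 69.6 to 7.57, 9.74 and 16.8 and from 19.1, 19.8 and 20.3 to 5.1, 6.35 and 5.92 (-2.51 ± 0.323 and -1.61 ± 0.117). No deletion library of either gene reached its wild type libraries.

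Beside the polyketide cluster, genes with a large decrease in both included a transporter and a detoxifying enzyme. The L-fucose-proton symporter match AOL_s00076g531, a sugar importer known from Escherichia coli, went from 512, 565 and 519 to 43.7, 41.9 and 38.9 in the Acy experiment. Within the PkaC1 experiment it went from 11.6, 11.2 and 10.6 to 0.115, 0.318 and 0.147, at levels far apart (-3.65 ± 0.128 and -3.35 ± 0.124, limma adjusted p of the difference = 0.145). Flavohemoprotein AOL_s00043g392, which detoxifies nitric oxide, fell from 682, 408 and 714 to 44.5, 62.1 and 48.4 and from 377, 376 and 366 to 41.8, 47.4 and 63.2 (-3.49 ± 0.208, adjusted p = 1.94e-07, and -2.87 ± 0.116, adjusted p = 4.72e-09). Both genes had every deletion library below every wild type library, as the rule that chose them required. Phosphatidylserine decarboxylase AOL_s00097g76, which makes phosphatidylethanolamine, changed by -2.70 and -3.56, and alcohol dehydrogenase AOL_s00081g10 by -2.44 and -2.83.

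Storage carbohydrate genes had 5 of 15 tested members lower in both and none in the other classes, against 183 of 8751 genes overall. Their median log2 fold change was -0.999 in the Acy and -1.04 in the PkaC1 comparison (-0.05 and -0.01 over all tested genes). Without scaling the medians were -0.85 and -0.95 (0.09 and 0.20 over all tested genes). Glycogen phosphorylase (AOL_s00109g17), which releases glucose units from glycogen, went from 446, 453 and 431 to 219, 166 and 136 and from 174, 170.2 and 173 to 48.9, 50.9 and 41.1 (-1.37 ± 0.162 and -1.86 ± 0.113). Trehalose-phosphatase (AOL_s00110g144), the last step of trehalose synthesis, went from 211, 179 and 226 to 84.9, 76.7 and 61.8 and from 104, 94.6 and 94.8 to 38.2, 37.6 and 29.9 (-1.46 ± 0.14 and -1.46 ± 0.0901). For both, the deletion libraries lay below wild type in either experiment. Glycogen synthase (AOL_s00007g435) changed by -1.08 and -2.83, and without scaling it was not in the class. Acid trehalase (AOL_s00043g154), which splits trehalose, changed by -1.45 and -1.04, the second value near the threshold. The glycogen debranching enzyme (AOL_s00054g751) went from 63.6, 47 and 55 to 25.9, 25.3 and 18.1 in the Acy experiment and from 2.08, 3.85 and 5.39 to being listed at 0 in the PkaC1 deletion libraries.

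Nitrogen use genes, which bring nitrate, urea and purines into metabolism, had 3 of 32 members lower in both, against 183 of all 8751 genes, and none in the other classes. Over each deletion alone the list went both ways, with 5 higher and 6 lower in the Acy deletion and 2 higher and 9 lower in the PkaC1 deletion. The neighbours nitrite reductase (AOL_s00210g162) and nitrate reductase (AOL_s00210g163), which together reduce nitrate to ammonium, were 2 of them. Nitrate reductase went from 608, 460.3 and 521 to 148, 169.8 and 133 and from 158, 151 and 154 to 68.8, 54.7 and 59.3 (-1.81 ± 0.135 and -1.33 ± 0.0796), and nitrite reductase changed by -2.74 and -1.01, the second value at the edge of the threshold, and it left the class under 4 of 21 alternatives. Urease (AOL_s00080g26), which splits urea into ammonia and carbon dioxide, went from 105, 144 and 104 to 31.4, 31 and 27.2 and from 167, 168 and 163 to 70.3, 69.4 and 72.2 (-1.93 ± 0.129 and -1.22 ± 0.047). Deletion and wild type libraries of these 3 genes did not overlap, and without scaling neither nitrite reductase nor urease was in the class.

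Of 68 tested genes of the secreted peptidase list, 3 were lower and 2 higher in both, and 1 was in each opposite class. Over all tested genes 2.09% were lower, 2.89% higher and 0.994% and 0.948% opposite, so that each count is within a few genes of the background. The opposite ones, AOL_s00076g558 and AOL_s00215g748, are serine protease inhibitors by name, which the words of the list matched, and not peptidases. The cuticle-degrading serine protease AOL_s00076g4, a subtilisin of the kind with which nematode-trapping fungi digest nematode cuticle, went from 34.5, 37.4 and 27 to 3.13, 4.69 and 4.25 and from 115, 115 and 107 to 36.7, 22.1 and 14.5 (-2.76 ± 0.257 and -2.25 ± 0.307). Its deletion libraries were all below wild type. The carboxypeptidases AOL_s00054g278 and AOL_s00007g290 changed by -1.99 and -1.82 in the Acy and by -2.76 and -2.46 in the PkaC1 deletion. Higher in both were AOL_s00007g136, with an aspartyl protease domain, and the subtilisin match AOL_s00188g339. AOL_s00007g136 went from 0.0408, 0 and 0.0529 to 6.79, 10.2 and 15 in the Acy experiment and from 0.807, 0.382 and 0.637 to 72.3, 81.2 and 88.5 in the PkaC1 experiment, without overlap (3.44 ± 0.224 and 5.67 ± 0.229).

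Within the cAMP-PKA list of 7 genes, 1 was lower in both, against 183 of all 8751 genes. That gene is the cyclic-nucleotide phosphodiesterase AOL_s00097g378, which hydrolyses cAMP. It went from 99.9, 39.5 and 119.5 to 28.4, 32.6 and 36 in the Acy experiment, where 1 wild type library lay near the deletion libraries (-1.25 ± 0.325, adjusted p = 0.00816). In the PkaC1 experiment it went from 144, 143 and 143 to 17.3, 16.9 and 15.4, far below wild type (-3.05 ± 0.0749, adjusted p = 1.63e-10), and the effects differed (adjusted p = 0.000323). Without the third wild type library of the Acy experiment, the gene was no longer in the class.

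Regulators and transporters lower in both included AOL_s00215g261, a match to the zinc cluster regulator GAL4, which went from 17.6, 12.5 and 18.4 to 2.36, 3.1 and 2.74 and from 13.3, 13 and 11.7 to 2.42, 2.09 and 1.49 (-2.19 ± 0.164 and -2.20 ± 0.118). Its deletion libraries were the low ones in both experiments and did not overlap wild type. The GABA permease match AOL_s00173g75 went from 25.1, 11.3 and 21 to 3.04, 3.38 and 3.71 and from 88.5, 87.5 and 86.2 to 12.5, 17.2 and 17.2 (-2.13 ± 0.248 and -2.42 ± 0.109). The delta(24)-sterol reductase match AOL_s00075g166 changed by -1.35 and -1.71, and the glyoxylate cycle enzyme isocitrate lyase (AOL_s00075g130) by -1.43 and -1.68. Another zinc cluster gene, AOL_s00083g490, had overlapping libraries in the Acy experiment (361, 109.9 and 349 in wild type, 56, 89.5 and 174 in the deletion, adjusted p = 0.0323). It did not pass there with only the 2 untreated groups in the fit or without any 1 of 4 of the 6 untreated libraries. The COX17 family gene AOL_s00078g314, a copper chaperone of cytochrome c oxidase, passed narrowly in both (-1.52, adjusted p = 0.0132, and -1.25, adjusted p = 0.0253), and did not pass in the PkaC1 comparison with the wild type groups as 1 library or without any 1 of 4 of the 6 libraries, nor in the Acy comparison without the third wild type library.

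Among genes higher in both deletions, the largest changes came from neighbours that carry no name in the annotation. Of the 15 genes AOL_s00088g34 to AOL_s00088g48, 14 were higher in both, and 12 of these 14 have neither a Swiss-Prot match nor a Pfam domain. This stretch, too, was drawn to begin and end with a gene of the class, so the count only describes it. AOL_s00088g34 was at 0.163, 2.03 and 0.731 in wild type and 1677, 1485 and 1828 in the Acy deletion libraries (9.83 ± 0.291). Among the PkaC1 libraries it was at 0, 0 and 0.168 and 29.6, 31 and 37.1 (4.99 ± 0.15). Wild type was at or near 0 in both experiments, and the Acy deletion libraries rose further than the PkaC1 deletion libraries (difference 4.84, limma adjusted p = 7.89e-10).

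AOL_s00088g40 followed the same order, from 7.39, 6.21 and 7.95 to 1057, 942 and 1426 in the Acy and from 0.142, 0 and 0.938 to 43.4, 47.2 and 41.5 in the PkaC1 experiment. AOL_s00088g42, a C2H2 zinc finger gene of the kind that binds DNA, went from 0.459, 0.257 and 0.72 to 147, 162 and 218 (6.89 ± 0.196, adjusted p = 6.7e-10) and from 0, 0 and 0.0531 to 75.8, 73.7 and 78.9 (6.24 ± 0.169, adjusted p = 3.25e-10). The difference between its effects was 0.65, under 2-fold (adjusted p = 0.0452). AOL_s00088g35, AOL_s00088g36, AOL_s00088g37 and AOL_s00088g45 were listed at 0 in all 3 wild type libraries of the PkaC1 experiment, and their deletion libraries there were at 97.2, 69.1 and 69.2, at 17.1, 28.2 and 15.1, at 39.96, 28.7 and 27.1 and at 3.11, 3.2 and 3.08. The one gene in between that was not in the class, AOL_s00088g38, changed by 0.99 ± 0.252 in the Acy deletion and -0.10 in the PkaC1 deletion (adjusted p = 0.481). At the far end, AOL_s00088g48 changed least (1.77 and 1.39, adjusted p = 0.0109 and 0.0333) and overlapped in the PkaC1 experiment.

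**Figure D3:**
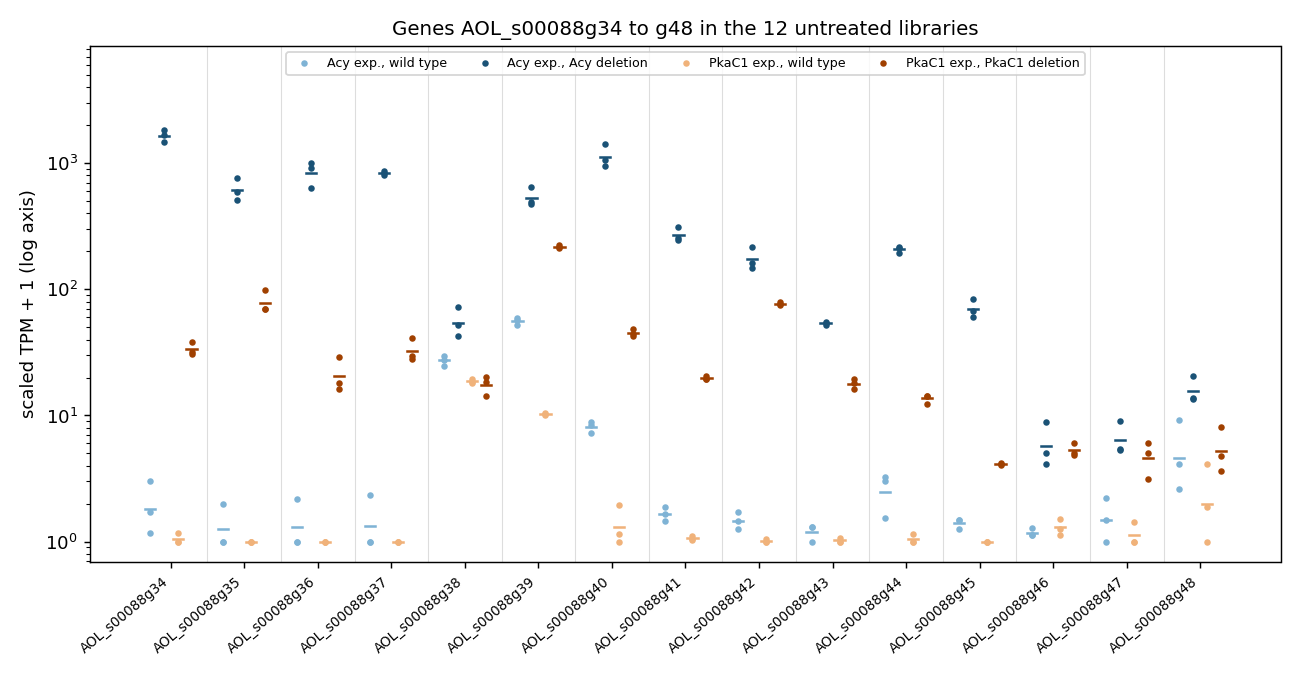
Scaled TPM + 1 on a log axis of the 15 neighbouring genes AOL_s00088g34 to AOL_s00088g48 in the 12 untreated libraries; points are libraries and bars the mean of their log values (n = 3). Both wild types sit at or near 1 (0 TPM) for most genes, the Acy deletion libraries are highest for most, and AOL_s00088g38 moves least.

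A second run of unnamed neighbours, AOL_s00097g420 to AOL_s00097g423, was higher in both. AOL_s00097g423 went from 0.326, 0.545 and 0.18 to 182, 205 and 263 in the Acy and from 9.71, 11.7 and 8.16 to 195, 200.2 and 215 in the PkaC1 experiment (7.33 ± 0.433 and 4.25 ± 0.128). The 4 genes changed by 5.84 to 7.33 in the Acy and by 3.69 to 4.34 in the PkaC1 deletion. Other runs were AOL_s00215g238 to AOL_s00215g241, with a Myb/SANT domain gene among them, and AOL_s00140g80 to AOL_s00140g82.

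Of the named genes, the zinc transporter match AOL_s00215g488, for uptake of zinc in yeast, rose from 61.8, 60.3 and 56.7 to 889.5, 905 and 959.9 in the Acy experiment (3.92 ± 0.0997, adjusted p = 3e-10). Within the PkaC1 experiment it rose from 2.64, 4.11 and 2.44 to 86.1, 102 and 115 (4.67 ± 0.163, adjusted p = 1.69e-09). Its deletion libraries were far above wild type in both, at levels that differ between the tables. The acyl-CoA ligase AOL_s00076g158, a match to azaF of azaphilone synthesis in Aspergillus niger, rose from 145, 145 and 212 to 3061, 2871 and 3141 and from 9.18, 10.3 and 9.16 to 97.5, 97.7 and 97.8 (4.19 ± 0.172 and 3.23 ± 0.102). Its neighbour AOL_s00076g157, an adenylate-forming reductase, rose with it, by 3.85 and 2.49. The aquaporin AOL_s00054g390, a water channel, rose from 9.15, 9.67 and 10.7 to 56.1, 54.6 and 73.1 and from 75.2, 78.7 and 69.5 to 464, 625 and 737 (2.51 ± 0.175 and 2.99 ± 0.134).

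AOL_s00215g318, with a nucleoside phosphorylase domain, rose from 8.11, 12.9 and 8.62 to 76.6, 88.9 and 110.0 and from 45.4, 40.9 and 35.5 to 388, 319.8 and 343, by nearly the same step (3.11 ± 0.217 and 3.08 ± 0.189). AOL_s00083g68, with the NPP1 domain of necrosis-inducing proteins, went from 0.663, 0.525 and 0.318 to 11.2, 9.1 and 12.4 and from 2.37, 2.38 and 4.02 to 21.1, 29.1 and 34.2 (2.98 ± 0.239 and 2.89 ± 0.297). The Kelch-motif gene AOL_s00054g196 changed by 2.77 and 3.06. For these 3 genes the direct test did not call the effects different (adjusted p = 0.95, 0.867 and 0.464). Their non-overlap was required by the rule that chose them. Of 33 tested cytochrome P450 genes, 2 were higher and 4 lower in both, and 1 was lower in the Acy and higher in the PkaC1 deletion. Over all tested genes these shares were 2.89%, 2.09% and 0.948%. The 2 P450 genes higher in both were matches to patI (AOL_s00078g25, 3.62 and 2.71) and to af510 (AOL_s00081g120, 4.80 and 1.71).

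Heat shock proteins, which fold and refold other proteins, had 3 of 98 members higher in both, a share near that of all tested genes (253 of 8751), none lower in both and 1 in each opposite class. The Hsp70 12A matches AOL_s00075g43 and AOL_s00043g179 rose by 2.95 and 2.95 in the Acy deletion and by 2.42 and 2.03 in the PkaC1 deletion, and the DnaJ co-chaperone AOL_s00083g171 by 2.34 and 1.87. AOL_s00075g43 was at 12.3, 12.4 and 13 in wild type and 89.7, 97.8 and 126 in the Acy deletion libraries, and at 0.657, 1.23 and 1.26 and 10.3, 7.79 and 11.8 in the PkaC1 experiment. Of the cell cycle list, the septin match AOL_s00079g93 (cell division control protein 11) rose by 1.16 and 2.63, and the match to the vegetative incompatibility protein HET-E-1, AOL_s00173g166, by 1.38 and 1.52. Conidiation and spore genes had 1 of 20 tested members in the 4 classes, against 606 of all 8751 genes. That member is AOL_s00097g514, whose Swiss-Prot match is brlA, the regulator that starts conidiophore development in Aspergillus. It went from 10.7, 20.3 and 17.8 to 37.1, 35.3 and 31.1 (1.08 ± 0.224, adjusted p = 0.00207) and from 2.3, 2.13 and 3.02 to 25.2, 24.7 and 23 (2.87 ± 0.15, adjusted p = 3.31e-08), higher in every deletion library. The effects differed (adjusted p = 2.51e-05), and without the first wild type library of the Acy experiment the gene was not in the class. Of 46 amino acid transporter genes, 3 were higher in both, 1 lower in both and 1 opposite, beside 2.89%, 2.09% and 0.994% of all tested genes in the classes concerned. The methionine permease AOL_s00054g977 changed by 2.10 and 1.08, the cystine/glutamate transporter match AOL_s00078g493 by 3.57 and 1.29, and the dicarboxylic amino acid permease AOL_s00173g318 by 1.37 and 2.25.

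Genes that moved in opposite directions were led, on the side higher in the Acy and lower in the PkaC1 deletion, by the general amino acid permease match AOL_s00170g65, named for the broad amino acid importer GAP1 of yeast. It was at 19, 20.2 and 21 in wild type and 222, 206 and 238 in the Acy deletion libraries (3.40 ± 0.158, adjusted p = 2.76e-08). In the PkaC1 experiment it was at 141, 140.5 and 134 in wild type and 15.1, 15.9 and 13.9 in the deletion libraries (-3.13 ± 0.111, adjusted p = 1.84e-09). High in the PkaC1 experiment's wild type and in the Acy deletion, and low in the other 2 groups, it had a difference between effects of 6.53.

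The glucose-repressible gene match AOL_s00004g152, named for a Neurospora transcript that rises when glucose is lacking, was among the most abundant transcripts. It went from 1833, 1927 and 2070.2 to 5059.8, 7086 and 7475 in the Acy experiment (1.73 ± 0.205) and from 1448, 1577 and 1509 to 41, 95.9 and 103 in the PkaC1 experiment (-4.33 ± 0.301). Both wild types were at similar levels, and the deletions lay above and below them. Lipid phosphate phosphatase AOL_s00097g367, which removes phosphate from lipids, went from 23.4, 17 and 17.4 to 51.6, 66.4 and 116 in the Acy experiment (1.89 ± 0.358). Among the PkaC1 libraries it was at 140.2, 147 and 139 in wild type and listed at 0 in all 3 deletion libraries. N-acetylglucosamine-6-phosphate deacetylase (AOL_s00007g269), which opens the use of the chitin sugar N-acetylglucosamine, went from 31, 22 and 24.7 to 108, 94 and 132 and from 586, 666 and 642 to 110.4, 188 and 222 (2.06 ± 0.182 and -1.91 ± 0.201).

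The MARVEL-domain membrane protein genes AOL_s00083g439 and AOL_s00188g154 changed by 2.24 and 1.84 in the Acy deletion and by -2.81 and -1.79 in the PkaC1 deletion. AOL_s00083g439 varied among the Acy experiment's libraries (39, 10.8 and 34.8 in wild type, 77.6, 97 and 232 in the deletion), without the overlap that the rule excluded. The oxidoreductase AOL_s00215g834 (a match to YhxC) went from 14.7, 9.78 and 14.4 to 51.6, 50.6 and 60.8 and from 19.95, 21.3 and 20.02 to 0.528, 0.24 and 1.71 (2.002 ± 0.185 and -3.63 ± 0.253), and the epimerase-domain gene AOL_s00043g807 changed by 1.997 and -2.56. The serine protease inhibitor match AOL_s00215g748 went from 5693, 4189 and 4411 to 18969, 16199 and 28589 in the Acy experiment. Within the PkaC1 experiment it was far lower throughout, going from 28, 37.6 and 27.9 to 11.1, 7.53 and 9.47 (2.13 ± 0.251 and -1.63 ± 0.248). The small heat shock protein Hsp16 match AOL_s00097g499 changed by 2.44 and -1.05 but left the class under 3 of 21 alternatives, and the glucose transporter match AOL_s00081g27 by 1.47 and -1.56.

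On the other side, lower in the Acy and higher in the PkaC1 deletion, the lipoxygenase AOL_s00097g288, which adds oxygen to polyunsaturated fatty acids, led the named genes. It went from 114, 123 and 203 to 5.25, 4.17 and 2.87 in the Acy experiment (-4.84 ± 0.338, adjusted p = 6.55e-07). In the PkaC1 experiment it went from 0.426, 0.568 and 0.584 to 13.9, 11 and 11.9 (3.12 ± 0.179, adjusted p = 6.88e-08). The deletion libraries were the low ones in the first case and the high ones in the second, at -7.96 between the effects. The GPI-anchored cupredoxin AOL_s00097g587, with a copper-binding fold, went from 399.7, 483 and 367 to 118, 77.6 and 53.1 and from 59.1, 59.3 and 64.2 to 528, 452 and 501 (-2.38 ± 0.272 and 2.997 ± 0.209). AOL_s00170g60, a match to the FAD monooxygenase OpS4, went from 113, 67.3 and 92.3 to 17.7, 20.5 and 25.1 in the Acy experiment, while in the PkaC1 experiment it was listed at 0 in wild type and at 16.9, 11.5 and 8.93 in the deletion libraries. AOL_s00097g326, with the Anp1 domain of Golgi mannosyltransferases, went from 135, 99.1 and 127 to 26, 21.9 and 32.5 and from 22.7, 21.4 and 23.2 to 89.8, 89.2 and 91.5 (-2.13 ± 0.205 and 1.96 ± 0.0551).

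The neighbours AOL_s00075g62 and AOL_s00075g61, matches to a polyamine transporter and to a GPI mannosyltransferase that builds the sugar chain of membrane anchors, were in the same class. AOL_s00075g61 went from 49.6, 95.6 and 58.5 to 19.8, 14.6 and 16.4 in the Acy experiment and from 8.06, 6.88 and 10.7 to 26.9, 31.6 and 28.5 in the PkaC1 experiment (-1.90 ± 0.211 and 1.67 ± 0.121), and AOL_s00075g62 changed by -1.74 and 2.84. The P450 gene AOL_s00097g233, a match to tryprostatin B 6-hydroxylase, went from 8.27, 18.5 and 8.32 to 2.57, 3.13 and 2.53 and from 30.7, 29.7 and 27.3 to 135, 104 and 109 (-1.67 ± 0.27 and 1.94 ± 0.145). AOL_s00097g301, with a domain of unknown function, changed by -1.92 and 1.77. None of these genes had a deletion library among its wild type libraries, as the rule that chose them required.

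Of 14 tested tyrosinase and laccase genes, 4 were lower in the Acy and higher in the PkaC1 deletion, 1 was higher in both, 1 lower in both and none was in the remaining class. Over all tested genes these shares were 0.948%, 2.89%, 2.09% and 0.994%. Tyrosinases oxidise phenols on the way to melanin. The neighbours AOL_s00083g37 and AOL_s00083g38 went from 66.8, 48.9 and 52.6 to 13.1, 13.9 and 19.5 and from 81.3, 47.9 and 58.6 to 12.3, 19.3 and 27.6 in the Acy experiment. In the PkaC1 experiment they went from 15.2, 16 and 18.1 to 48.8, 54.6 and 48.6 and from 19.2, 18.2 and 19.1 to 36, 44.7 and 43.9. Deletion and wild type were apart within each experiment (-1.80 and -1.65, and 1.57 and 1.09). Tyrosinase AOL_s00215g501 was low in wild type of both experiments, at 1.25, 1.49 and 4.33 and at 0.435, 0.595 and 0.575. It was at 0, 0.0862 and 0.03 in the Acy deletion and 129, 109.6 and 118 in the PkaC1 deletion libraries (-1.58 ± 0.348 and 6.28 ± 0.125). The fourth gene that the list holds is not a phenol oxidase: AOL_s00097g347 matches the multicopper oxidase FET3, which in yeast works with an iron permease in high-affinity iron uptake. Its neighbour AOL_s00097g346 is that iron permease by name, and both moved alike, AOL_s00097g346 from 165, 136 and 182 to 45.8, 53.4 and 42 and from 1.53, 1.76 and 1.15 to 6.34, 7.12 and 5.49, and AOL_s00097g347 from 167, 137 and 173 to 29.2, 42.4 and 27.4 and from 2.07, 2.32 and 1.5 to 4.03, 5.62 and 6.66. Wild type levels of these 2 genes were far apart between the experiments, and without either the third wild type or the third deletion library of the PkaC1 experiment AOL_s00097g347 left the class.

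Cell wall and polysaccharide enzymes gave 3 of 47 chitin and glucan genes in this class, with 2 higher and 2 lower in both. Over all tested genes these shares were 0.948%, 2.89% and 2.09%. The endoglucanase match AOL_s00110g290 went from 8.01, 12.4 and 11.1 to 2.61, 1.55 and 1.16 and from 0.426, 0.249 and 0.681 to 10.3, 6.03 and 7.26 (-2.07 ± 0.268 and 2.59 ± 0.182), low levels throughout. The chitotriosidase match AOL_s00210g229, a chitinase, changed by -1.41 and 1.98, and the endo-beta-1,4-glucanase match AOL_s00054g739 by -1.82 and 1.80. Both AOL_s00110g290 and AOL_s00054g739 are also members of the plant polysaccharide list. Surface proteins and lectins had 3 of 65 members in this class, 2 higher in both, none lower in both and 1 in the remaining class, which holds 0.994% of all tested genes. The CFEM-domain protein AOL_s00215g434, of a fungal family of cysteine-rich surface proteins, went from 1489, 1939 and 1486 to 502, 458 and 488 and from 417, 414 and 429.6 to 1131, 1329 and 890.3 (-1.75 ± 0.173 and 1.39 ± 0.117), both well expressed and without overlap. The PHO85 cyclin match AOL_s00078g9 changed by -1.13 and 3.10, the first value lost without scaling or without the third Acy deletion library, and the mitochondrial peroxiredoxin match AOL_s00215g326 by -1.23 and 2.03. The serine-rich protein match AOL_s00079g312 changed by -1.43 and 1.46. The unnamed neighbours AOL_s00188g330 to AOL_s00188g333 were also in this class, AOL_s00188g331 going from 15.2, 14.6 and 25.9 to 1.24, 0.552 and 1.36 and from 28.7, 29 and 29.9 to 354, 326 and 316.

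**Figure D4:**
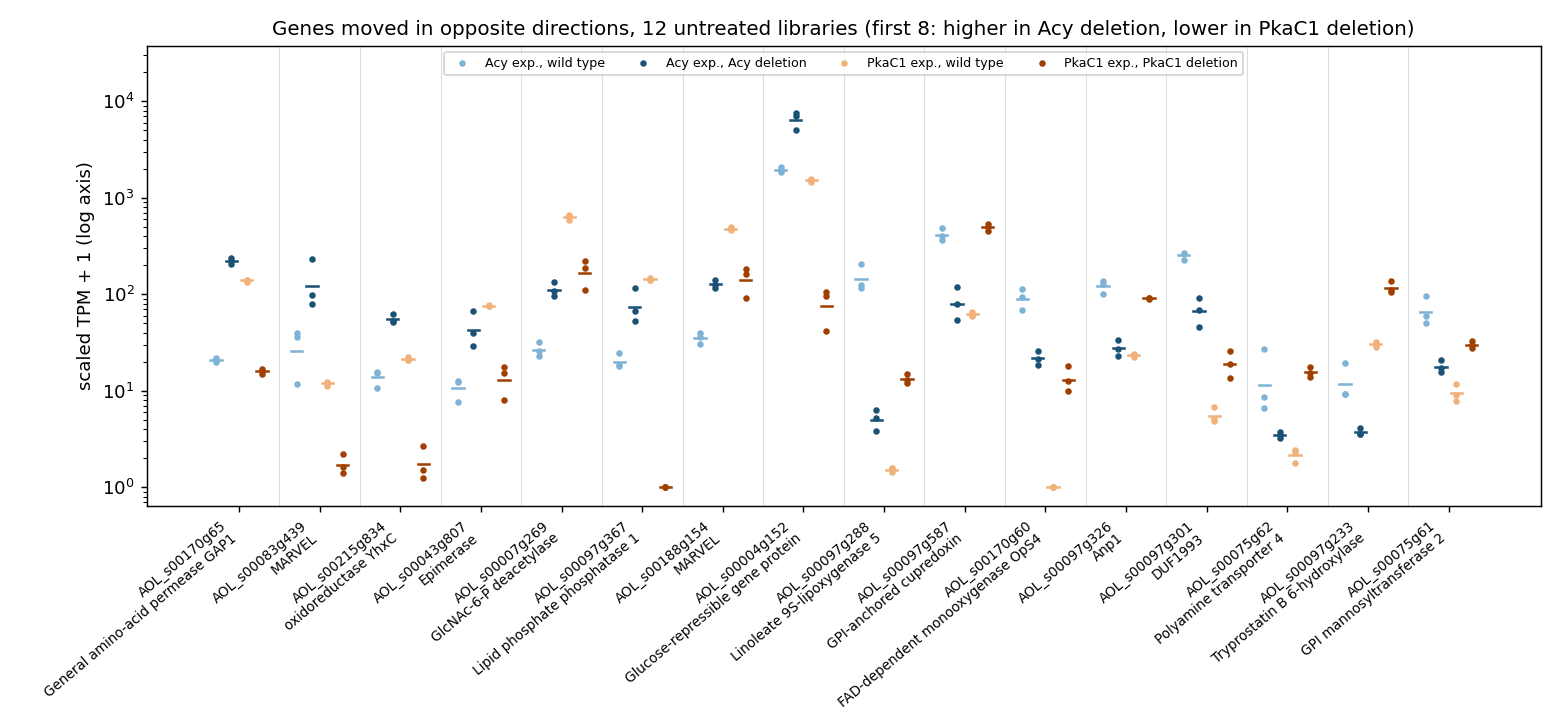
Scaled TPM + 1 on a log axis of the 16 named genes with the largest opposite changes among those averaging 10 TPM or more in the higher group of each experiment, in the 12 untreated libraries; points are libraries and bars the mean of their log values (n = 3); GlcNAc-6-P is N-acetylglucosamine-6-phosphate. In the first 8 genes the Acy deletion libraries are above and the PkaC1 deletion libraries below their own wild type, and in the last 8 the order is turned. The absence of overlap in either experiment was part of the rule that chose these genes.

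The 2 wild types did not have the same levels. Across genes their log2 levels correlated at 0.745, and 3024 of the 8751 genes were 2-fold or more higher in wild type of the Acy experiment and 1115 in that of the PkaC1 experiment. The difference between 2 effects is by construction the difference between the deletions minus that between the wild types, so opposite effects go with differences of either. Of the 87 genes higher in the Acy and lower in the PkaC1 deletion, 53 were 2-fold or more higher in wild type of the PkaC1 experiment and 8 in that of the Acy experiment. In the deletion strains 66 of the 87 were 2-fold or more higher in the Acy and 3 in the PkaC1 deletion. Of the 83 genes of the reverse class, 60 were 2-fold or more higher in wild type of the Acy experiment and 5 in that of the PkaC1 experiment, against 16 and 51 in the deletion strains. The median difference between wild types (log2, Acy minus PkaC1 experiment) was -1.48 and 2.36 in these classes and 0.56 over all tested genes. Between the deletions it was 2.42, -1.40 and 0.63. Whether wild type differences belong to the cultures or to how the 2 tables were made cannot be told apart.

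The 4 classes hold 606 of 8751 genes, and several gene lists had no member in them, which for the short lists is near that share: cytosolic ribosomal proteins (75 tested), proteasome (42), DNA replication (44), vesicle traffic (101), ribosome biogenesis (40), autophagy (24), G proteins and receptors (17) and MAP kinases (12). Respiration had 1 of 122 genes higher and 3 lower in both, with medians of -0.55 in the Acy and -0.64 in the PkaC1 comparison. The 3 lower ones were the COX17 family gene, an ATP synthase epsilon chain gene (AOL_s00215g203) and nitrate reductase, which the words of the list matched. At adjusted p under 0.05 alone, 61 of the 122 were lower in both and 3 higher in both, against 988 and 737 of all 8751 genes. Most of the 61 were thus under 2-fold in at least 1 deletion. By 2-fold or more, 9 of the 122 were lower in the Acy and 28 in the PkaC1 deletion. Mitochondrial ribosomal proteins had medians of -0.77 and -0.43, with 1 of 56 lower in both, or 27 at adjusted p alone. The tricarboxylic acid cycle had 2 of 35 lower in both, or 19 at adjusted p alone. These 2 were mitochondrial malate dehydrogenase (AOL_s00210g140, -1.08 and -1.66) and a fumarate reductase match (AOL_s00054g545, -1.55 and -1.002), each with 1 value near the threshold. The medians of the list were -0.54 and -0.62. Without scaling these medians stayed below 0, at -0.40 and -0.41 for respiration, -0.62 and -0.21 for mitochondrial ribosomal proteins and -0.39 and -0.40 for the tricarboxylic acid cycle. Cytosolic ribosomal proteins had medians of -0.45 and 0.14, and without scaling -0.30 and 0.37.

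The remaining lists had these members in the classes, given as higher in both, lower in both, higher in the Acy and lower in the PkaC1 deletion, and the reverse. Over all tested genes the shares, in that order, were 2.89%, 2.09%, 0.994% and 0.948%. Zinc cluster factors had 1, 3, 0 and 1 of 84, metal transporters 1, 2, 0 and 1 of 31, and plant polysaccharide enzymes 0, 2, 0 and 2 of 83. The last 2 are the endoglucanase matches already counted among the chitin and glucan genes. Cell cycle genes had 2, 0, 0 and 1 of 191, antioxidant genes 0, 0, 1 and 1 of 85, sterol genes 0, 2, 1 and 0 of 47, and sugar transporters 0, 0, 1 and 0 of 19. Peroxisome and fatty acid oxidation had 1 of 63 lower in both, the glyoxylate cycle and gluconeogenesis 2 of 9, and polyketide and other secondary metabolism 4 of 12. The 4 of that list are the synthase and the decarboxylase of the cluster, the second decarboxylase named above and chalcone synthase match AOL_s00043g287. Lists were matched by words, so some hold proteins that their name does not describe. The metal transporter list holds flavohemoprotein, the sterol list holds the phytoene synthase, and the secreted peptidase list holds serine protease inhibitors.

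Annotation, coding length and position were not used in forming the classes, whereas the level was, through the filter and the log2(TPM + 1) scale. A Swiss-Prot match was given for 26.1% of the genes higher in both, against 68.9% of those lower in both, 34.5% and 43.4% of the opposite classes and 61.1% of all tested genes. Neither a match nor a Pfam domain was given for 134 of the 253 genes higher in both, 42 of the 183 lower in both, 35 of 87 and 39 of 83 of the opposite ones, and 2095 of 8751. The median coding length was 1089 and 1170 bases in the shared classes and 990 and 996 bases in the opposite ones, against 1290 bases overall. The median wild type level was 4.28 (Acy experiment) and 2.43 (PkaC1 experiment) for genes higher in both, and 96.8 and 87.4 for genes lower in both, against 32.8 and 21.0 overall; a gene with a low wild type level has little room to be called lower. In 18 of the 253 genes higher in both, wild type was listed at 0 throughout in at least 1 experiment. Along the RefSeq gene order, 59 of the 253 genes had a direct neighbour of the same class, as did 26 of the 183, 6 of the 87 and 12 of the 83. Runs of 3 or more numbered 8, and the longest held 10 genes, AOL_s00088g39 to AOL_s00088g48.

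The direction in the induced libraries was not used in forming the classes, although these libraries entered the level filter and the estimate of the spread. With only the 2 untreated groups in the fit, the classes held 248, 179, 85 and 81 genes. In the Acy deletion after induction, 815 of 8751 genes were higher than in wild type (9.31%) and 1051 lower (12%), together 21.3%. Of the 253 genes higher in both untreated, 194 were higher there and 5 lower, and of the 183 lower in both, 162 were lower and none higher. In the induced PkaC1 deletion 1229 genes were higher (14%) and 483 lower (5.52%), together 19.6%. Of the 253, 112 were higher there and 4 lower, and of the 183, 42 were lower and 32 higher. A shared increase was thus found again in both induced comparisons for 80 genes, and a shared decrease for 37, while 29 of the 183 were lower in the Acy and higher in the PkaC1 deletion. Over all 8751 genes, these 3 induced patterns held 230, 102 and 225 genes.

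Of the 87 genes higher in the Acy and lower in the PkaC1 deletion, 32 were higher and 6 lower in the induced Acy deletion, and 31 were higher and 12 lower in the induced PkaC1 deletion. They kept the opposite directions in 5 cases, reversed both in 5, and were higher in both in 7, beside 21, 225 and 230 of all 8751 genes with these induced patterns. Of the 83 genes of the reverse class, 48 were lower and none higher in the induced Acy deletion, and 44 were higher and 4 lower in the induced PkaC1 deletion. In both, 24 were called in the same opposite directions, beside 225 of all 8751 genes. Among the 24 were the lipoxygenase, both neighbouring tyrosinases and the iron permease and multicopper oxidase pair.

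The cluster and run genes described above kept their direction to different degrees. All 8 polyketide cluster genes lower in both untreated were also lower in both induced comparisons, with log2 fold changes from -3.15 to -1.15 and from -6.80 to -3.84. AOL_s00215g277 was at 55.1, 45.9 and 25.1 in induced wild type and 4.3, 6.56 and 8.55 in the induced Acy deletion libraries, and at 2142, 2139 and 2081 and 44.3, 41 and 31.4 in the PkaC1 experiment. AOL_s00215g278, the P450 gene not called in the untreated PkaC1 deletion, was higher in the induced one, at 2151, 2290.4 and 2298 in wild type and 8505, 8134 and 9693 in the deletion libraries. Of the 14 genes of the AOL_s00088 run, 13 were higher in the induced Acy deletion and 0 in the induced PkaC1 deletion. AOL_s00088g34 was at 2.25, 1.71 and 0.906 in induced wild type and 1369.6, 1413 and 1715 in the Acy deletion libraries, whereas in the PkaC1 experiment it was listed at 0 and at 0.498, 0.771 and 0.256. The 4 genes of the AOL_s00097g420 run were higher in the induced Acy deletion, and 1 of them in the induced PkaC1 deletion.

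**Figure D5:**
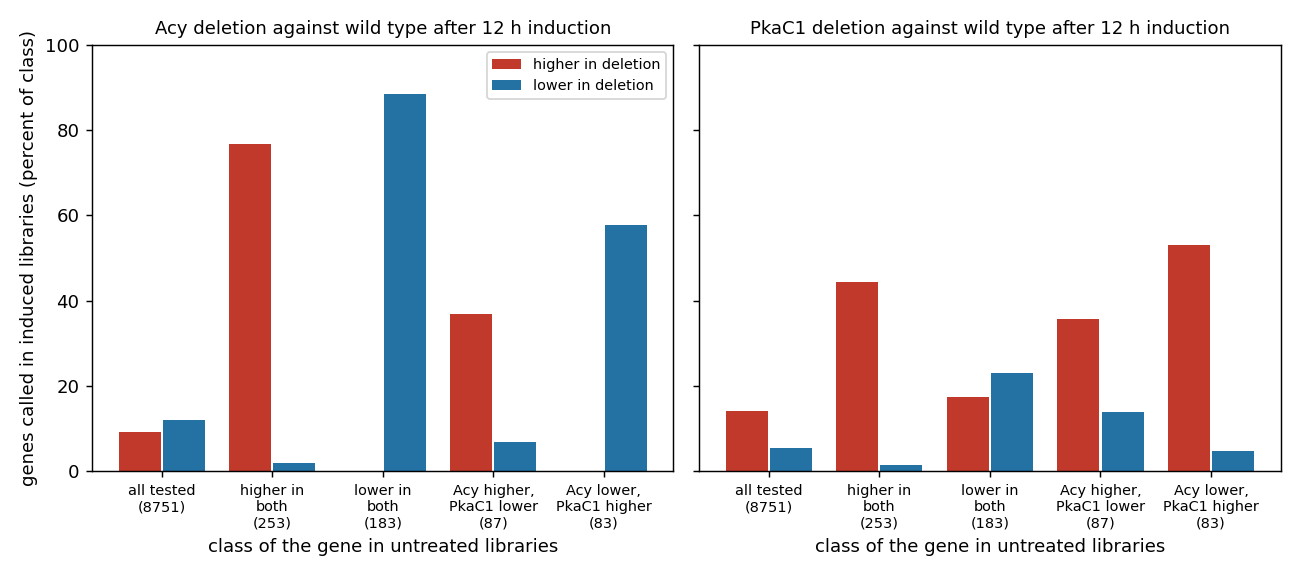
Bars give the percentage of each untreated class called higher (red) or lower (blue) in the deletion after 12 h of induction, for the Acy experiment (left) and the PkaC1 experiment (right), from 0 to 100%; numbers under the classes are genes. In the Acy experiment 76.7% of the genes higher in both and 88.5% of those lower in both keep their direction, against 44.3% and 23.0% in the PkaC1 experiment, and the first bars give all tested genes.

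The authors' deposited tables of comparisons rest on the same libraries and are no independent check. With the same thresholds, the authors' deposited tables put 315 genes higher in both, 181 lower in both, and 113 and 101 in the opposite classes. They share 235, 153, 82 and 76 genes with the classes given here, which is 92.9%, 83.6%, 94.3% and 91.6% of the latter and 74.6%, 84.5%, 72.6% and 75.2% of the former. The sign in the authors' deposited tables was the same in both comparisons for all 253, 183, 87 and 83 genes.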

How the data were processed

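RNA of fungal hyphae was sequenced in 24 libraries, of which the 12 untreated ones give the effects that form the classes; the 12 induced ones entered the level filter and the estimate of the spread. The authors deposited 2 tables of TPM, 1 per experiment, for which the submitters' processing notes name HISAT2 and StringTie; versions and genome build are not given in the sources used here. Both deposited tables also list gene length, which is nearly always a multiple of 3 and is called coding length. The authors deposited log2 fold changes and adjusted p-values of their own comparisons, per the file headers, with no tool named; 8 columns of group means and the tables of correlations between libraries were not used. Another 1568 entries of the PkaC1 experiment's table have no gene name and were left out.

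Libraries were scaled to the same median within a table, and log2(TPM + 1) was tested with limma 3.58.1 (R 4.3.3, trend in the variance, 4 groups per experiment). Each table was tested, with Benjamini-Hochberg adjustment, over its own genes that reached 1 TPM in 3 libraries or more. These were 9617 genes in the Acy and 8977 in the PkaC1 experiment, and the 8751 genes tested in both were then compared. A fold change on the log2(TPM + 1) scale understates the change of low genes. The difference between both effects was tested in 1 fit over both experiments. The rule for named genes took, per class, the 8 annotated genes with the largest smaller-of-2 absolute changes, no overlap, and a higher group that averaged at least 10 TPM in each experiment, then up to 2 genes of each list with 3 or more class members, and the candidates for the deleted genes. The 32 lists were matched by words in the annotation. Members and lists were chosen with earlier results of these data known. On simulated data, 193 of 200 genes changed by 2 (log2) in both experiments came out in the right class and 0 in a wrong one, among 8609 genes. The changed genes were drawn only from those above a minimum mean level in both tables, and their change was well beyond the threshold. That rate therefore does not apply to genes of low level or near the threshold. Neighbours follow the gene order of the RefSeq annotation, assembly AOL24927. The planned search of promoters for motifs was not run. Samples were grouped by their titles and labels. Alternatives changed the pseudocount, filter, scaling, variance model, samples, replicate block and each untreated library. TPM give no depth, so no counting interval is printed.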

Additional observations from a re-analysis of the deposited data

Results flagged for a closer look

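For 6 of the named genes higher in the Acy and lower in the PkaC1 deletion, the deletion effect in at least 1 experiment was called with the opposite sign in the induced libraries (adjusted p under 0.05 and 2-fold or more), and limma's test of the difference (induced minus untreated) passed. Each difference is a log2 value within 1 experiment. In the PkaC1 experiment, the amino acid permease AOL_s00170g65 changed by -3.13 untreated and 1.47 induced, a difference of 4.60 (adjusted p = 3.77e-09). The MARVEL-domain gene AOL_s00083g439 went from -2.81 to 1.54, a difference of 4.36 (adjusted p = 1.49e-07), and AOL_s00188g154, of the same domain, from -1.79 to 1.01, a difference of 2.79 (adjusted p = 1.25e-05). The oxidoreductase AOL_s00215g834 went from -3.63 to 2.77, a difference of 6.41 (adjusted p = 9.31e-08).

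In the Acy experiment 3 of these also changed sign without a 2-fold call in the induced libraries: AOL_s00215g834 from 2.002 to -0.75 (adjusted p of the difference = 8.45e-05), AOL_s00188g154 from 1.84 to -0.50 (0.000184) and AOL_s00083g439 from 2.24 to -1.09 (0.0072, with an induced adjusted p of 0.0694).

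The effect was called with the opposite sign in both experiments for 2 genes. The glucose-repressible gene AOL_s00004g152 went from 1.73 to -1.92 in the Acy experiment, a difference of -3.65 (adjusted p = 4.2e-05), and from -4.33 to 4.29 in the PkaC1 experiment, a difference of 8.62 (adjusted p = 3.7e-08). The lipid phosphate phosphatase AOL_s00097g367 had a difference of -3.94 in the Acy experiment (from 1.89 to -2.05, adjusted p = 0.000592). Its fitted difference in the PkaC1 experiment was 11.43, but the untreated deletion and the induced wild type were listed at 0, so that value depends on the pseudocount and gives no fold.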

How the results depend on the processing

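Of the 606 genes, 333 kept their class under all 21 alternatives, and no alternative put any of them into another class. No count of calls moved by more than 1.5 times. Leaving out each untreated library gave 244 to 258 genes higher in both, 168 to 219 lower in both, 62 to 106 higher in the Acy and lower in the PkaC1 deletion, 74 to 94 the reverse, and 2257 to 2572 whose effects differed. Over each table's own tested genes, calls ranged from 1614 to 1829 (Acy, 1734 with all libraries) and from 1911 to 2045 (PkaC1, 1976). The classes, in the same order, were 323, 212, 109 and 100 with a pseudocount of 0.1, 205, 155, 79 and 69 with a minimum of 5 TPM, 232, 216, 86 and 85 with scaling over all annotated genes, and 224, 170, 80 and 80 with each PkaC1 experiment wild type group as 1 library.

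With the replicate number as a block, the counts were 252, 180, 87 and 83, with 1727 and 1976 calls and 2444 effects that differed; the numbers did not pair the libraries, since same-numbered libraries correlated at -0.460 to 0.209 (Acy) and -0.022 to 0.068 (PkaC1). Values without a call changed sign in the Acy comparison of the PKA catalytic subunit candidates. AOL_s00043g480 came to 0.0535 without scaling and between -0.17 and 0.0011 without 1 library. AOL_s00078g405 came to -0.0033 with scaling over all annotated genes and between -0.0051 and 0.17 without 1 library. The cause was not tested. TPM give no depth, so low values have no counting error here.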
